A study of Mus musculus with 6 samples.

Results

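The gene set described here is the cholesterol pathway of 4T1 cells: the enzymes that build cholesterol, the proteins that bring it into the cell and move it, and the proteins that sense it. Its 33 genes were chosen by name from the 28154 genes of the deposited table, and all 33 are in it. They are 18 enzymes on the way from acetyl-CoA to cholesterol, 1 enzyme of the geranylgeranyl branch, 3 genes of uptake and its control, 4 of intracellular transport and storage and 7 of sterol sensing and transcription. RNA was sequenced from 3 libraries of 4T1 cells treated with corticosterone and from 3 libraries of control 4T1 cells. 4T1 cells come from a mammary tumour of a mouse and form metastases when put back into mice of that strain, and corticosterone is the main glucocorticoid of rodents. All 6 libraries come from this line, with corticosterone dose, treatment time and control vehicle not given in the sources used here. Whether replicates were separate cultures is not stated in the labels. P-values therefore measure only how far these libraries spread, which may be technical.

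Cells make cholesterol from acetyl-CoA by way of mevalonate, farnesyl diphosphate, squalene and lanosterol. The pathway is under feedback control: when membranes of the endoplasmic reticulum hold enough sterol, Insig proteins retain the escort protein Scap together with the transcription factors called sterol regulatory element binding proteins (SREBPs, from Srebf1 and Srebf2), and when sterol is scarce Scap carries the SREBPs to the Golgi, where they are cut and released to drive the genes of synthesis and uptake. The liver X receptors, encoded by Nr1h2 and Nr1h3, bind oxysterols and drive genes of cholesterol export. Glucocorticoids are themselves made from cholesterol in the adrenal cortex and act through a nuclear receptor that is present in most cell types.

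Promoters of Hmgcs1, Cyp51 and Insig1 are shown because these genes, from the start of the pathway, its sterol part and its feedback control, are members whose transcripts fell. Sequences are from RefSeq, build GRCm38.p6, on the strand of the gene, from 250 bases before to 50 after the start of transcription. Capitals mark each TCACNNCA, a loose form of the sterol regulatory element bound by SREBPs, and each CCAAT box, bound by the SREBP partner NF-Y, both searched on both strands, so that ATTGG is a CCAAT box on the other strand. The windows are chr13:119690101-119690400 on the plus strand for Hmgcs1, chr5:4104648-4104947 on the minus strand for Cyp51 and chr5:28071162-28071461 on the plus strand for Insig1.
Hmgcs1: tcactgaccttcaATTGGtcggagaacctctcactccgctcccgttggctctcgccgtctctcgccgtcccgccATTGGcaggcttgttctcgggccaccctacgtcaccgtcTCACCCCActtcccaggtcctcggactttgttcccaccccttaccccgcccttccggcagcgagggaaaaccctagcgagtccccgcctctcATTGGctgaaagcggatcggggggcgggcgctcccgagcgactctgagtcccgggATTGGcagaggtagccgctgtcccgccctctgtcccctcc
Cyp51: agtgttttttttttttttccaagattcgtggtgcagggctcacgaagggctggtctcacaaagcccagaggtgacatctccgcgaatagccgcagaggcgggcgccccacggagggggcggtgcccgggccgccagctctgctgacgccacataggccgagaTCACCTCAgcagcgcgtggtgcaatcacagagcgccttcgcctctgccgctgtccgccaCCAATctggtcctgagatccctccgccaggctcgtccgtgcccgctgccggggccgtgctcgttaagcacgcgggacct
Insig1: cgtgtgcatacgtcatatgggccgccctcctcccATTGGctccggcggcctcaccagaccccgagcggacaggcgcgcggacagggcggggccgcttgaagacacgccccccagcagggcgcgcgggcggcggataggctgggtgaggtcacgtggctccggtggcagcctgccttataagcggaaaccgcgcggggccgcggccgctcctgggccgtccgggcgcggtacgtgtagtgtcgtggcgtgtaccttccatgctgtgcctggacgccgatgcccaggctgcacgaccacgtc
In Hmgcs1 the loose element lay within TCACNCCAC, a stricter form, which 1.24% of 32851 RefSeq promoter windows hold. Among members it was found in 1 of 38 windows, which belong to the 27 members with a window in the set of promoters used. Fdps, Fdft1, Sqle, Scarb1, Stard4 and Npc1 had no window there and were not searched. The loose form stood in 11 of these 38 windows (28.9%), against 13.8% of all windows, and in 10 genes: Hmgcs1, Pmvk, Cyp51, Msmo1, Nsdhl, Hsd17b7, Sc5d, Dhcr7, Insig2 and Srebf2. A CCAAT box stood in 23 member windows (60.5%) against 37.4% of all windows, and the window of Hmgcs1 holds 4. AGAACA, the core letters of glucocorticoid receptor sites, stood in 8 member windows (21.1%) against 18.97% of all windows. These matches describe letters in a short window and do not show binding. A motif that is missing is missing only from these windows.

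The libraries held 62175495 to 66249288 counts with corticosterone and 63398404 to 65915866 counts in controls. Levels are given as CPM, which are counts over a library size scaled with the TMM method, and, to compare genes, as the authors' FPKM. FPKM divides by a gene length, which need not be that of a single transcript. For Fdps the length implied by counts and FPKM was 4.75 kb, while its longest coding transcript has 1382 bases. Comparisons between genes in FPKM depend on this length. Known glucocorticoid targets rose in the treated libraries, among them Per1, a clock repressor (log2 fold change 1.75, SE 0.077), and Tsc22d3, which encodes GILZ (1.55, SE 0.065; edgeR, Benjamini-Hochberg adjusted p = 7.85e-05 and 7.85e-05). The 6 epithelial markers summed to 3676 to 4394 CPM with corticosterone and 3978 to 4186 CPM in controls, the 5 fibroblast markers to 28.5 to 31.8 CPM with corticosterone and 28.8 to 31.2 CPM in controls, the 5 leukocyte markers, nearly all Lyz2, to 172 to 251 CPM with corticosterone and 171 to 193 CPM in controls, and the 4 endothelial markers to 0.700 to 0.843 CPM with corticosterone and 1.37 to 2.01 CPM in controls. No marker was at 0 in all libraries, though Lum, Cd3e, Cdh5, Kdr and Tek were under 1 CPM in each, and none of the markers tested passed. The part of these markers in the results below was not tested. In bulk RNA, fewer cells of a type and less RNA per cell cannot be told apart. Corticosterone replicate 2 differed from both other treated libraries. Ribosomal protein genes took 5.99, 7.18 and 5.67% of counts in corticosterone replicates 1, 2 and 3, against 6.36, 6.66 and 6.87% in control replicates 1, 2 and 3. On the first principal component of all genes corticosterone replicate 2 lay at 9.17, against 29.6 and 38.5 for replicates 1 and 3, with the controls between -33.8 and -21.5, and calls of single members that change without this library are given beside the gene. Mitochondrial genes took 3.52, 3.80 and 3.30% of counts in corticosterone replicates 1, 2 and 3, against 3.93, 3.91 and 4.01% in control replicates 1, 2 and 3, so that on this share the groups did not overlap. The part of either share in the results was not tested.

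Transcripts of the enzymes that make cholesterol were lower along the whole route with corticosterone. All 18 had negative log2 fold changes, from -0.47 to -0.11 with a median log2 fold change of -0.32, against a median of 9.62e-05 over the 17283 tested genes. Of these 18, 9 fell and 9 did not pass (edgeR quasi-likelihood test, Benjamini-Hochberg adjusted p under 0.05 over all tested genes). In 17 of the 18 each treated library lay below each control library. Outside synthesis, 1 of the other 15 members fell, Insig1, so that in all 10 of 33 fell, where 1.46% of all tested genes did, and 21 of 33 had all treated libraries below all controls, where 11.6% of all tested genes did. None of the 33 rose in edgeR, where 1.35% of all tested genes did. At an unadjusted p under 0.05 2 were higher and 20 lower, where 8.23% of all tested genes were higher and 8.80% lower. DESeq2 called 0 higher and 17 lower (where it called 3.84% of all tested genes lower) and limma 0 higher and 9 lower of 32 tested (where it called 2.43% of the genes it tested lower). The count of 10 rests on single libraries: it was 0, 20 and 4 without corticosterone replicates 1, 2 and 3, and 1, 0 and 1 without control replicates 1, 2 and 3, though the median of the 33 stayed between -0.24 and -0.22. Without corticosterone replicate 2 the background was also larger: 1786 of 17862 tested genes fell and 1884 rose (10.5%), 20.5% in both directions.

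**Figure D1:**
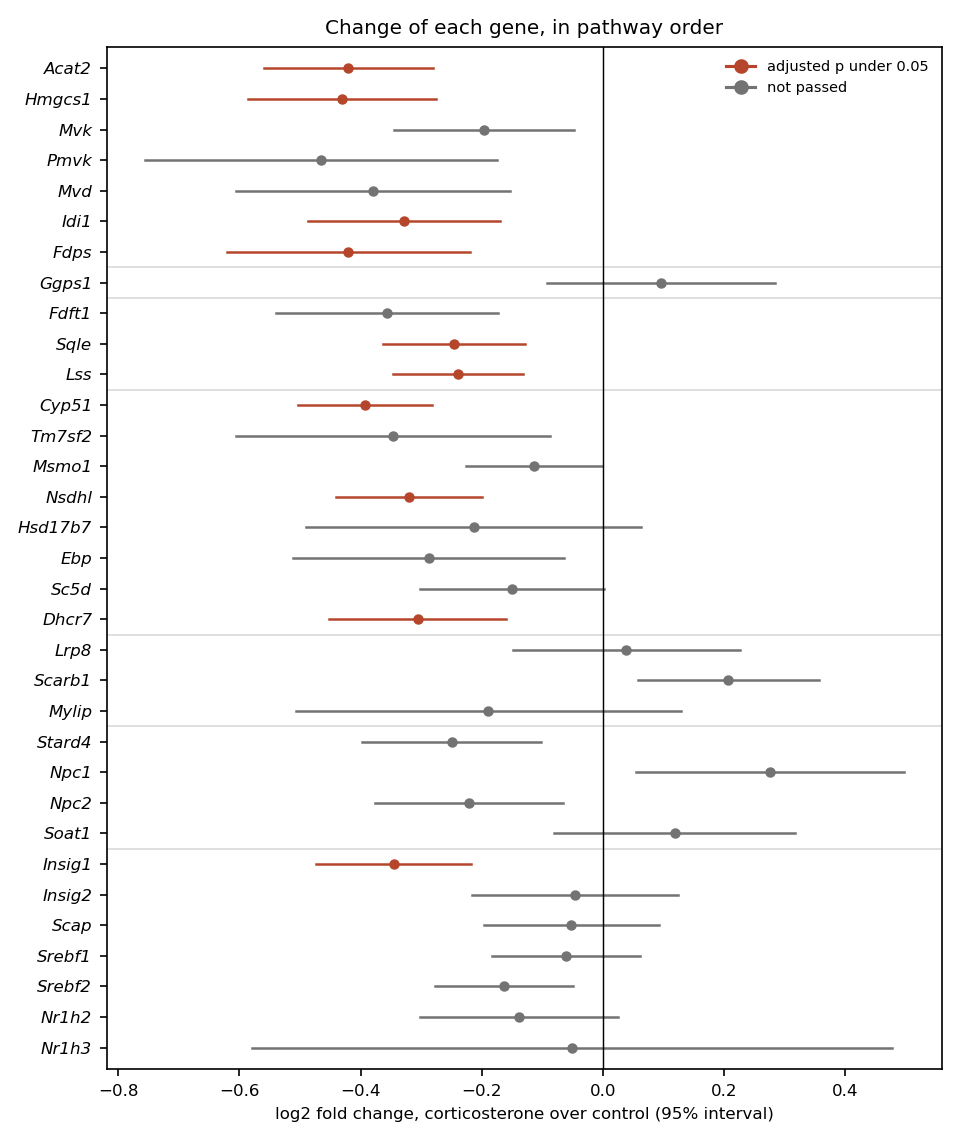
Log2 fold change of corticosterone over control libraries (x axis) for each of the 33 genes in pathway order (y axis), with 95% intervals from edgeR, red where the adjusted p was under 0.05 and grey where it was not. The 18 synthesis enzymes, from Acat2 to Dhcr7 without Ggps1, all lie left of 0, while Ggps1, Lrp8, Scarb1, Npc1 and Soat1 lie right of it.

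The summed level of the 18 enzymes shows the size of the difference in each library. It was 464, 485 and 459.6 FPKM in corticosterone replicates 1, 2 and 3, against 594, 597 and 593 FPKM in control replicates 1, 2 and 3. The treated libraries averaged 469 ± 13.8 FPKM and the controls 595 ± 2.08 FPKM (SD, n = 3 each), a ratio of 0.789, or 0.797 when CPM were summed. All treated libraries, replicate 2 included, lay below all controls, by much more than the spread within either group. The sum is a description of genes chosen with these results known, and no p is given for it.

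**Figure D2:**
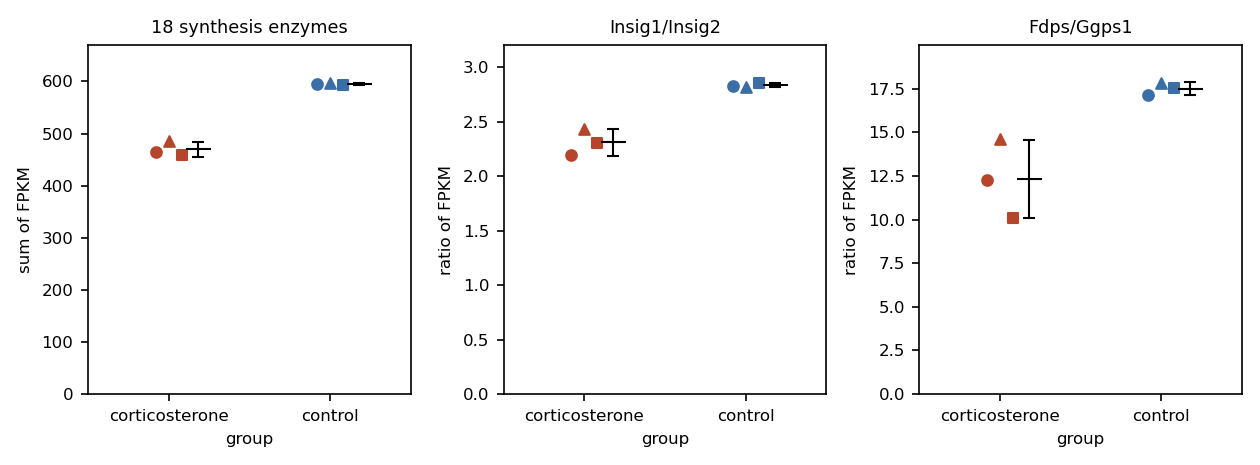
Sum of FPKM over the 18 synthesis enzymes (left), and ratios of FPKM of Insig1 to Insig2 (middle) and of Fdps to Ggps1 (right), 1 point per library with the group mean and SD as a bar, corticosterone in red and control in blue. In all 3 panels the corticosterone libraries lie below the control libraries, as for Fdps to Ggps1, with 12.3, 14.6 and 10.1 against 17.1, 17.8 and 17.6.

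The route begins with the enzymes from acetyl-CoA to farnesyl diphosphate, of which 4 of 7 fell, where 1.46% of all tested genes did. Acat2 (chr17:12942890-12960747), the cytosolic thiolase that joins acetyl-CoA units, had 155, 175 and 154 CPM in corticosterone replicates 1, 2 and 3, against 217, 214 and 217 CPM in control replicates 1, 2 and 3 (log2 fold change -0.42, SE 0.061; edgeR, Benjamini-Hochberg adjusted p = 0.0110). Hmgcs1 (chr13:119690379-119708260), which makes HMG-CoA and whose promoter is shown above, had 167, 154 and 180.1 CPM with corticosterone, against 234, 226 and 215 CPM in controls (-0.43, SE 0.068; edgeR, Benjamini-Hochberg adjusted p = 0.0159). The groups did not overlap for either gene, and the treated replicate nearest to the controls was replicate 2 for Acat2 and replicate 3 for Hmgcs1. Fdps (chr3:89093588-89101959), farnesyl diphosphate synthase, is the most abundant of the 33 genes per length, and its counts were 335, 411 and 327 CPM with corticosterone, against 466, 475 and 494 CPM in controls (-0.42, SE 0.088; edgeR, Benjamini-Hochberg adjusted p = 0.0467). Idi1 (chr13:8885501-8892451), the isomerase of isopentenyl diphosphate, had 137, 118 and 137 CPM with corticosterone, against 170.1, 164 and 158 CPM in controls (-0.33, SE 0.069; edgeR, Benjamini-Hochberg adjusted p = 0.0479). In corticosterone replicate 2 these last genes went opposite ways, Fdps being nearest to the controls and Idi1 farthest from them.

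The remaining enzymes of this stretch, which turn mevalonate into isopentenyl diphosphate, did not pass with all libraries. Mevalonate kinase (Mvk) had 36.9, 40.1 and 37.8 CPM with corticosterone, against 45.4, 42.8 and 43.3 CPM in controls. Phosphomevalonate kinase (Pmvk) had 45.3, 62.5 and 44.8 CPM with corticosterone, against 65.6, 72.3 and 72.8 CPM in controls. The decarboxylase Mvd had 50.3, 54.6 and 42.5 CPM with corticosterone, against 58.8, 67.3 and 65.7 CPM in controls. For each of them the groups did not overlap, and the log2 fold changes were -0.20, -0.47 and -0.38 (SE 0.065, 0.13 and 0.099; edgeR, Benjamini-Hochberg adjusted p = 0.177, 0.109 and 0.0936). Pmvk had the most negative fold change of all 33 genes and also a wide spread among treated libraries, and without corticosterone replicate 2 it was -0.64 (SE 0.060), which passed (edgeR, Benjamini-Hochberg adjusted p = 0.000420). Mvk (-0.23) and Mvd (-0.46) passed there too (edgeR, Benjamini-Hochberg adjusted p = 0.0243 and 0.00684). Without this library all 7 enzymes of the stretch thus fell, where 10% of all tested genes did.

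Acat2, Fdps and Idi1 have near-identical copies among which reads may be split or shared, so their counts are uncertain to that extent. Acat3 (97.7% identical to Acat2 over 1477 bases) had 17.98, 13.7 and 14.8 CPM with corticosterone, against 21.3, 19.8 and 17.01 CPM in controls, and did not pass (-0.32; edgeR, Benjamini-Hochberg adjusted p = 0.249). Gm3571, an Fdps copy, had 20.6, 29.6 and 22.4 CPM with corticosterone, against 32.4, 33.8 and 34.2 CPM in controls (-0.47, not passed; edgeR, Benjamini-Hochberg adjusted p = 0.111). Gm13502, an Idi1 copy, had 8.85, 7.02 and 10.8 CPM with corticosterone, against 10.8, 10.3 and 9.62 CPM in controls (-0.21, not passed; edgeR, Benjamini-Hochberg adjusted p = 0.547). Each of these copies held far fewer counts than the member it resembles. Further such copies exist for Fdps and Idi1, and copies also exist for Fdft1 and Ggps1. Hmgcs1, Idi1 and Lss lie across from noncoding genes on the other strand with mean counts of 9.5, 0.8 and 12.2 per library, against 12659, 9508 and 7624 for the members themselves.

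At farnesyl diphosphate the route branches, and the branch enzyme Ggps1, which makes geranylgeranyl diphosphate for the lipid anchors of small GTPases, did not pass. Ggps1 had 30.7, 31.6 and 36.3 CPM with corticosterone, against 30.6, 30.00 and 31.6 CPM in controls, with overlapping groups and a log2 fold change of 0.10 (95% interval -0.09 to 0.28; edgeR, Benjamini-Hochberg adjusted p = 0.602). The ratio of Fdps to Ggps1 in FPKM was 12.3, 14.6 and 10.1 in corticosterone replicates 1, 2 and 3, against 17.1, 17.8 and 17.6 in control replicates 1, 2 and 3. The mean ratio was 12.3 ± 2.25 with corticosterone and 17.5 ± 0.360 in controls (SD, n = 3 each; exact permutation test over libraries, two-sided p = 0.1, the smallest that 3 against 3 libraries allow, and 0.15 after Benjamini-Hochberg adjustment over the 3 ratios computed). Ggps1 overlaps Arid4b on the other strand, and its level is uncertain, with the strandedness of counting not given in the sources used here.

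From farnesyl diphosphate to lanosterol, 2 of 3 enzymes fell, where 1.46% of all tested genes did. Sqle (chr15:59315077-59331192), squalene epoxidase, a rate-limiting step of the route, had 168, 163 and 171 CPM with corticosterone, against 205, 199 and 190.3 CPM in controls (-0.25, SE 0.051; edgeR, Benjamini-Hochberg adjusted p = 0.0466). Lss (chr10:76531588-76557138), which closes the rings to lanosterol, had 108, 109 and 108 CPM with corticosterone, against 129, 127 and 128 CPM in controls (-0.24, SE 0.047; edgeR, Benjamini-Hochberg adjusted p = 0.0358). Lss was tight in both groups, with an SD of 0.645 CPM with corticosterone and 1.16 CPM in controls (n = 3 each). Squalene synthase, Fdft1, had 135, 155 and 124 CPM with corticosterone, against 174, 178 and 178 CPM in controls, and its fold change was just outside the threshold (-0.36, SE 0.080; edgeR, Benjamini-Hochberg adjusted p = 0.0587). Fdft1 shares 774 bases with Ctsb on the other strand, a gene at 476 CPM with corticosterone and 471 CPM in controls, so that its level is uncertain. Fdft1 passed without corticosterone replicate 2 (-0.45; edgeR, Benjamini-Hochberg adjusted p = 0.000638).

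Of the 8 enzymes that trim lanosterol to cholesterol, 3 fell, where 1.46% of all tested genes did. Cyp51 (chr5:4081145-4104746), the lanosterol demethylase that starts this part and whose promoter is shown above, had 158, 159 and 166 CPM with corticosterone, against 213, 215 and 208 CPM in controls. Its log2 fold change was -0.39 (SE 0.048; edgeR, Benjamini-Hochberg adjusted p = 0.00603), the lowest p among the 33 genes. The groups lay far apart, and Cyp51 was also the call that held most often when 1 library was left out, in 4 of 6 fits, with a highest adjusted p of 0.0662 (edgeR, Benjamini-Hochberg). The calls of Acat2, Hmgcs1 and Insig1 held in 2 of 6 such fits. Those of Idi1, Fdps, Sqle, Lss, Nsdhl and Dhcr7 held in 1 of 6. Cyp51 overlaps Akap9 on the other strand over 166 bases, which leaves its level uncertain to that extent. Nsdhl (chrX:72918557-72958514), a dehydrogenase that works in the removal of ring methyl groups, had 76.5, 75.4 and 72.05 CPM with corticosterone, against 93.9, 91.4 and 94.4 CPM in controls (-0.32, SE 0.053; edgeR, Benjamini-Hochberg adjusted p = 0.0190). Dhcr7 (chr7:143823145-143848410), the reductase of the last step in one arm of the route, had 73.4, 81.5 and 72.6 CPM with corticosterone, against 91.3, 92.6 and 97.4 CPM in controls (-0.31, SE 0.064; edgeR, Benjamini-Hochberg adjusted p = 0.0468). The groups did not overlap for either gene.

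The other 5 enzymes of this stretch did not pass with all libraries. Tm7sf2, a sterol reductase, had 24.6, 29.5 and 22.2 CPM with corticosterone, against 30.5, 34.96 and 31.5 CPM in controls (-0.35, SE 0.11). The isomerase Ebp had 50.5, 63.8 and 51.6 CPM with corticosterone, against 64.7, 65.6 and 72.2 CPM in controls (-0.29, SE 0.098). In both the treated libraries were all below the controls, and replicate 2 was the highest treated library. Msmo1, the methylsterol oxidase, had 219.7, 207 and 216 CPM with corticosterone, against 235, 235 and 226 CPM in controls, the least negative fold change of the 18 (-0.11, 95% interval -0.23 to -0.00081). Sc5d, a desaturase, had 82.96, 72.7 and 82.2 CPM with corticosterone, against 90.9, 86.4 and 86.6 CPM in controls (-0.15, SE 0.066). For these genes too the groups did not overlap, though by a narrow margin. Hsd17b7, a sterol ketoreductase, was the 1 enzyme with overlapping groups, at 35.4, 27.8 and 37.7 CPM with corticosterone, against 42.8, 38.2 and 35.9 CPM in controls (-0.21, SE 0.12). Adjusted p for the 5 genes ran from 0.169 (Tm7sf2) to 0.421 (Hsd17b7; edgeR, Benjamini-Hochberg). Without corticosterone replicate 2, Tm7sf2 (-0.47) and Ebp (-0.40) passed (edgeR, Benjamini-Hochberg adjusted p = 0.00698 and 0.00316). Msmo1 (-0.09), Hsd17b7 (-0.09) and Sc5d (-0.09) lay nearer to 0 without it and did not pass (edgeR, Benjamini-Hochberg adjusted p = 0.142, 0.484 and 0.193).

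Compared per length, the levels of the enzymes spanned a wide range in both groups. Fdps was highest, with 75.3 ± 8.52 FPKM with corticosterone and 100.4 ± 2.57 FPKM in controls, followed by Acat2, with 56.2 ± 3.17 FPKM with corticosterone and 74.9 ± 0.574 FPKM in controls (SD, n = 3 each). Hmgcs1 (32.3 ± 2.96 FPKM with corticosterone and 43.3 ± 1.97 FPKM in controls), Cyp51 (32.4 ± 1.22 FPKM with corticosterone and 42.4 ± 0.924 FPKM in controls) and Idi1 (33.1 ± 3.18 FPKM with corticosterone and 41.3 ± 1.68 FPKM in controls) came next, and these do not differ from each other beyond their spread within either group. At the low end were Lss (8.91 ± 0.0864 FPKM with corticosterone and 10.5 ± 0.114 FPKM in controls), Hsd17b7 (5.85 ± 0.984 FPKM with corticosterone and 6.75 ± 0.632 FPKM in controls) and Tm7sf2 (5.10 ± 0.674 FPKM with corticosterone and 6.47 ± 0.471 FPKM in controls), of which the last pair overlap in range with corticosterone and in controls. The place of Lss depends on its implied length of 12.2 kb, the longest of the enzymes. In controls Lss averaged 128 CPM, more than Mvd, which had 63.9 CPM but 30.4 FPKM.

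**Figure D3:**
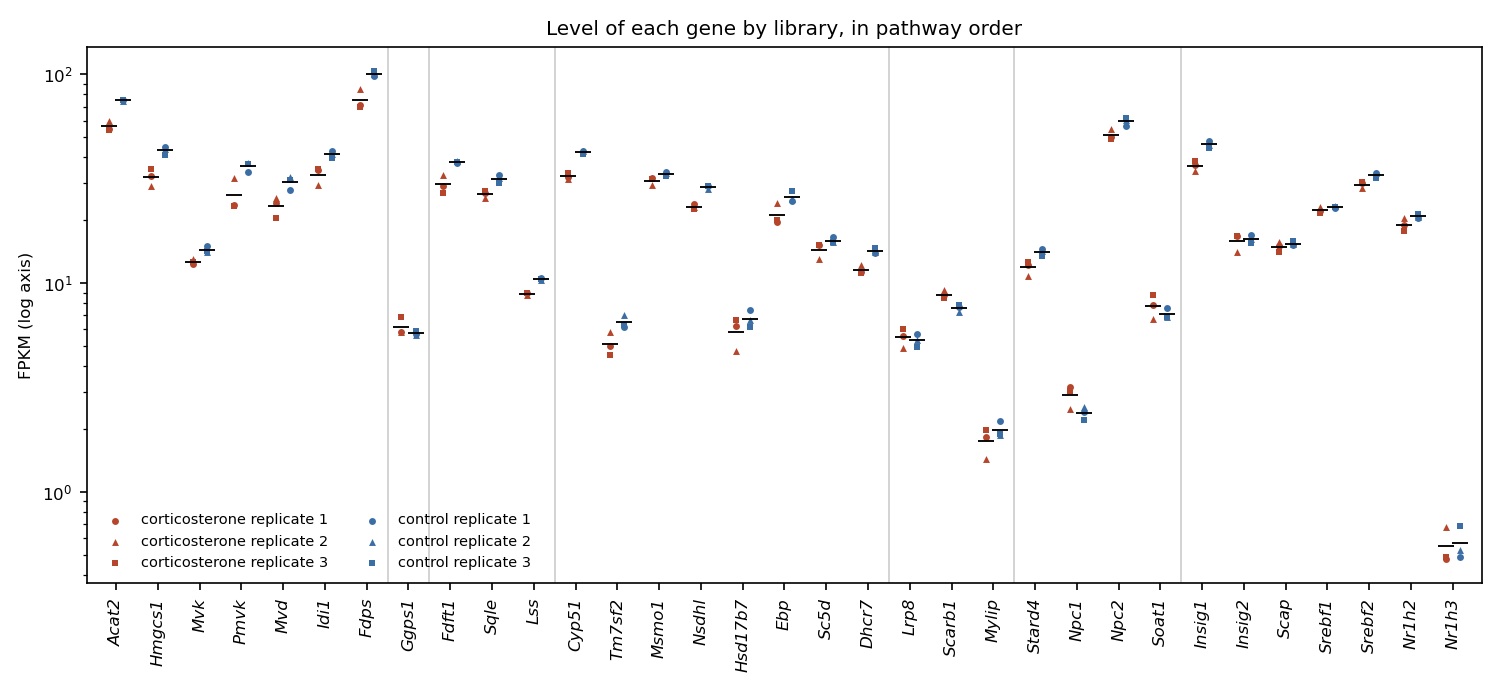
FPKM on a log axis (y axis) of the 33 genes in pathway order (x axis), with 1 point per library, the shape giving the replicate, and a bar at the group mean, corticosterone in red left of control in blue, and grey lines between the parts of the pathway. Fdps is the highest gene in every library and Nr1h3 the lowest, and the corticosterone points lie below the control points for nearly all of the enzymes on the left.

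None of the 3 genes of uptake and its control passed. Scarb1, the receptor for high density lipoprotein, had 83.04, 90.03 and 80.3 CPM with corticosterone, against 73.7, 69.7 and 76.2 CPM in controls. It was the 1 member of 33 with all treated libraries above all controls, where 10.6% of all tested genes were, and its log2 fold change of 0.21 (SE 0.065) did not pass (edgeR, Benjamini-Hochberg adjusted p = 0.157). Lrp8, a receptor for apolipoprotein E and reelin, had 79.5, 71.1 and 84.9 CPM with corticosterone, against 81.7, 76.3 and 71.2 CPM in controls (0.04, 95% interval -0.15 to 0.23; edgeR, Benjamini-Hochberg adjusted p = 0.851). Mylip, a ubiquitin ligase that marks lipoprotein receptors for degradation and is a known target of the liver X receptors, had 6.63, 5.30 and 7.13 CPM with corticosterone, against 7.94, 6.82 and 6.99 CPM in controls (-0.19, 95% interval -0.51 to 0.13; edgeR, Benjamini-Hochberg adjusted p = 0.540). The groups overlapped for both of these genes. At an unadjusted p under 0.05 1 of the 3 genes was higher, Scarb1, where 8.23% of all tested genes were, and DESeq2 and limma called 0.

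None of the 4 transport and storage genes passed in edgeR (2 lower and 1 higher at an unadjusted p under 0.05), while DESeq2 called 2 lower and limma 0. Over all tested genes these shares were 8.80% lower and 8.23% higher before adjustment, and 3.84% lower with DESeq2. Stard4, a carrier of sterol between membranes and a known SREBP target, had 76.03, 69.6 and 78.6 CPM with corticosterone, against 91.6, 89.9 and 85.2 CPM in controls, without overlap (-0.25, SE 0.064; edgeR, Benjamini-Hochberg adjusted p = 0.0905). Npc1 and Npc2 together hand cholesterol out of the lysosome, and their values had opposite signs. Npc1, the membrane protein, had 40.04, 32.5 and 38.5 CPM with corticosterone, against 30.8, 32.5 and 28.3 CPM in controls (0.28, SE 0.097; edgeR, Benjamini-Hochberg adjusted p = 0.200). Npc2, the soluble partner, had 305, 340.1 and 296 CPM with corticosterone, against 346, 371 and 379.7 CPM in controls (-0.22, SE 0.068; edgeR, Benjamini-Hochberg adjusted p = 0.148). For Npc1, corticosterone replicate 2 was at the level of the controls and replicates 1 and 3 were above them, and for Npc2 all treated libraries were below all controls, again with replicate 2 nearest. Soat1, which esterifies cholesterol for storage, had 86.2, 75.8 and 95.2 CPM with corticosterone, against 83.7, 76.4 and 76.9 CPM in controls (0.12, 95% interval -0.08 to 0.32; edgeR, Benjamini-Hochberg adjusted p = 0.540). Without corticosterone replicate 2, Npc1 (0.36) and Soat1 (0.20) were higher and Npc2 (-0.28) and Stard4 (-0.20) lower, with edgeR, Benjamini-Hochberg adjusted p from 0.00504 (Npc2) to 0.0470 (Soat1). That fit called 10.5% of all tested genes higher and 10% lower. Npc1 overlaps Rmc1 and Npc1 and Soat1 also overlap low noncoding genes on the other strand, so their levels are uncertain.

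Among the sensing proteins, the 1 gene that fell was Insig1 (chr5:28071363-28078662), a retention protein for Scap and itself a known SREBP target. It had 128, 122 and 133 CPM with corticosterone, against 168, 161 and 156 CPM in controls, a log2 fold change of -0.35 (SE 0.056; edgeR, Benjamini-Hochberg adjusted p = 0.0177). All treated libraries were below all controls, and replicate 2 was the lowest of them. Insig2, which shares the retention role, had 65.3, 56.1 and 64.7 CPM with corticosterone, against 66.7, 64.04 and 61.5 CPM in controls, with overlapping groups (-0.05, 95% interval -0.22 to 0.12; edgeR, Benjamini-Hochberg adjusted p = 0.797), and its log2 fold change was 0.02 without corticosterone replicate 2. The ratio of Insig1 to Insig2 in FPKM was 2.19, 2.44 and 2.30 in corticosterone replicates 1, 2 and 3, against 2.83, 2.82 and 2.86 in control replicates 1, 2 and 3. It averaged 2.31 ± 0.122 with corticosterone and 2.84 ± 0.0186 in controls (SD, n = 3 each; two-sided exact permutation p = 0.1, again the lowest that can be had, adjusted p = 0.15 over the 3 ratios). The groups did not overlap on this ratio, and corticosterone replicate 2 was the nearest to the controls.

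With all libraries, the transcription factors and their escort did not pass. Srebf2, whose SREBP mainly drives cholesterol synthesis, had 241, 234 and 244 CPM with corticosterone, against 272, 274 and 259 CPM in controls, without overlap (-0.16, SE 0.050; edgeR, Benjamini-Hochberg adjusted p = 0.143). Srebf2 passed as lower without corticosterone replicate 2 (-0.15; edgeR, Benjamini-Hochberg adjusted p = 0.0354), while Srebf1 and Scap did not pass there either. Srebf1, whose products mainly drive fatty acid synthesis, had 139.99, 149 and 135 CPM with corticosterone, against 145, 149 and 149 CPM in controls (-0.06, 95% interval -0.18 to 0.06; edgeR, Benjamini-Hochberg adjusted p = 0.612). Scap had 125, 135 and 117 CPM with corticosterone, against 128, 129 and 134 CPM in controls (-0.05, 95% interval -0.20 to 0.09; edgeR, Benjamini-Hochberg adjusted p = 0.727). The intervals of Srebf1 and Scap do not reach the log2 fold change of Hmgcs1 but leave room for small changes. The ratio of Srebf2 to Srebf1 in FPKM was 1.35, 1.23 and 1.41 with corticosterone, against 1.47, 1.45 and 1.37 in controls, with overlapping groups (exact permutation test, two-sided p = 0.2, adjusted p = 0.2 over the 3 ratios, n = 3 each), and the log2 difference of -0.10 was -0.05 without corticosterone replicate 2. Srebf1 overlaps Rai1 on the other strand over a short stretch, and Insig2 and Scap overlap low noncoding genes there. These are transcript levels, and the cleavage of the SREBPs, on which their activity depends, was not measured.

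Neither liver X receptor passed with all libraries. Nr1h2, the widely expressed form, had 70.9, 78.5 and 66.4 CPM with corticosterone, against 77.7, 78.3 and 81.6 CPM in controls, with overlapping groups (-0.14, SE 0.071; edgeR, Benjamini-Hochberg adjusted p = 0.373). The overlap came from corticosterone replicate 2, and without it Nr1h2 passed as lower (-0.21, SE 0.050; edgeR, Benjamini-Hochberg adjusted p = 0.0208). Nr1h3, the form known from liver and macrophages, was close to the limit of what can be measured, with 1.37, 1.98 and 1.41 CPM with corticosterone, against 1.40, 1.53 and 1.99 CPM in controls (-0.05, 95% interval -0.58 to 0.48; edgeR, Benjamini-Hochberg adjusted p = 0.936). Per length, Nr1h2 was at 19.00 ± 1.34 FPKM with corticosterone and 20.8 ± 0.464 FPKM in controls, and Nr1h3 at 0.547 ± 0.111 FPKM with corticosterone and 0.566 ± 0.103 FPKM in controls (SD, n = 3 each), so Nr1h2 supplied nearly all liver X receptor transcript in both groups.

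Set against the control mean of each gene on the log2 CPM scale, the 3 stretches of synthesis were lower in each treated library. The median deviation of the 7 enzymes up to farnesyl diphosphate was -0.43, -0.23 and -0.49 in corticosterone replicates 1, 2 and 3, against 0.01, -0.0022 and 0.01 in control replicates 1, 2 and 3. For the 3 enzymes from squalene synthase to Lss it was -0.25, -0.23 and -0.24 with corticosterone, against 0.01, 0.01 and -0.00074 in controls. For the 8 later enzymes it was -0.32, -0.24 and -0.36 with corticosterone, against 0.01, -0.02 and -0.03 in controls. Corticosterone replicate 2 thus had lower synthesis transcripts than every control, but it did not always take the same place among treated libraries. It lay above both other treated libraries in 16 members, Acat2, Mvk, Pmvk, Mvd, Fdps, Fdft1, Lss, Tm7sf2, Ebp and Dhcr7 among the enzymes, and below both in 14, Hmgcs1, Idi1, Sqle, Msmo1, Hsd17b7 and Sc5d among the enzymes. The first set had a median transcript GC content of 52.3% and a median length of 4.70 kb, and the second 45.2% and 6.01 kb. Length here is that implied by counts and FPKM. With each library's trend on gene length and GC content taken out, an alternative chosen after seeing the data, 15 members fell, all 10 named above among them, where 3.01% of all tested genes fell.

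**Figure D4:**
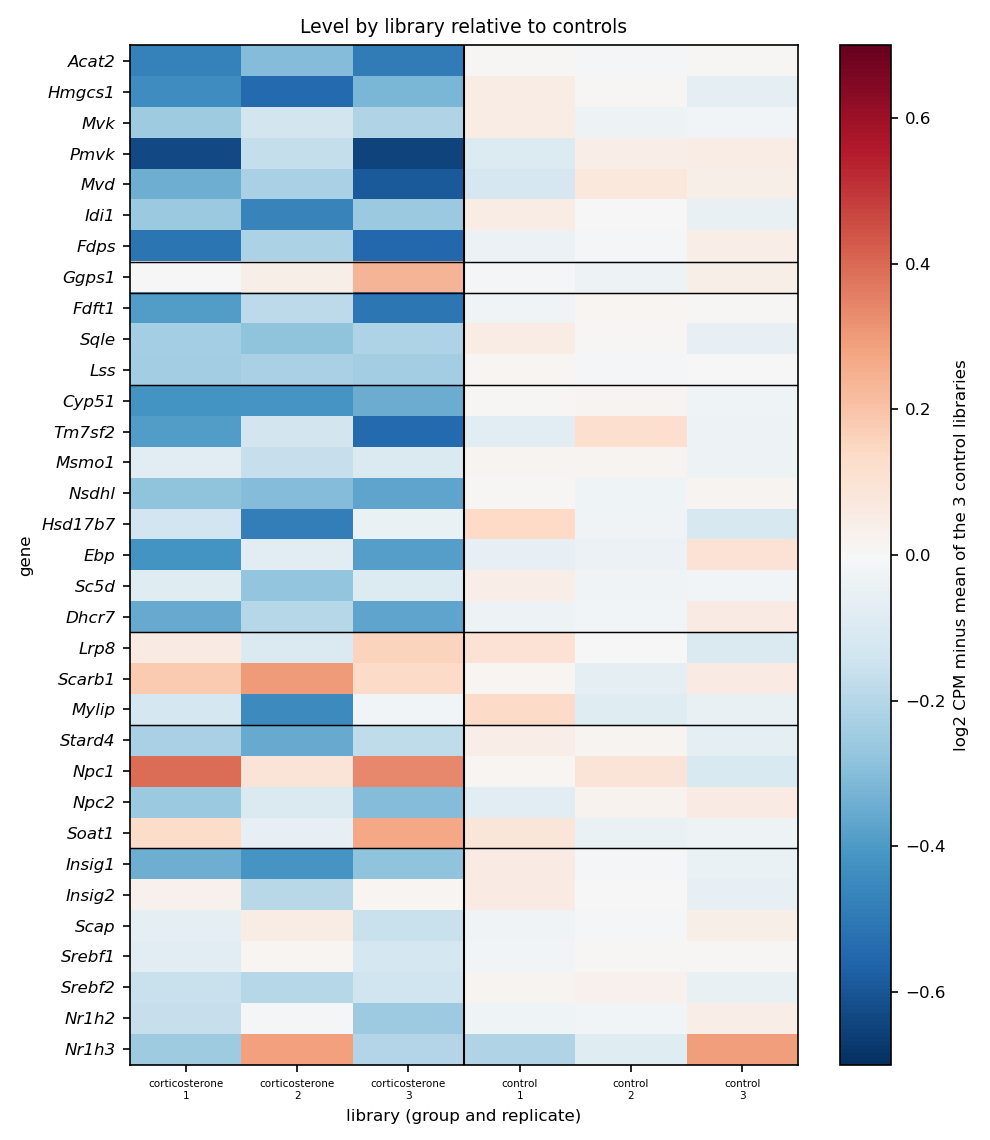
Log2 CPM of each gene (rows, pathway order) in each library (columns, corticosterone left of control) minus the mean of the 3 control libraries, blue for lower and red for higher, with black lines between the parts of the pathway. The rows from Acat2 to Dhcr7 are blue in all 3 corticosterone columns except for Ggps1, and Pmvk in corticosterone replicate 3 is the lowest of all at -0.65.

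Genes around the pathway were read from 7 lists, which hold 92 genes found in the table, with 3 of them on 2 lists. Of 87 tested, 3 fell and 0 rose in edgeR, where 1.46% of all tested genes fell, and the median log2 fold change of the 87 was -0.03. At an unadjusted p under 0.05, 9 were higher, where 8.23% of all tested genes were. DESeq2 called 4 higher, where it called 3.64% of all tested genes higher, and limma 0. In the 3 lists described next, 6 of 13, 5 of 14 and 2 of 8 genes were lower at an unadjusted p under 0.05, where 8.80% of all tested genes were. DESeq2 called 4, 3 and 1 of them lower, where it called 3.84% of all tested genes lower. Among 13 tested genes known to be sterol regulated, the glycolytic enzyme Aldoc fell (45.3, 52.99 and 41.9 CPM with corticosterone, against 64.9, 69.9 and 64.1 CPM in controls, -0.51, edgeR, Benjamini-Hochberg adjusted p = 0.0264). The others of that list did not pass, among them Aacs, which feeds ketone bodies into lipid synthesis (-0.22), and Mmab, which lies beside Mvk in the genome (-0.30), and the median was -0.18 with 12 of 13 below 0. Among 14 tested genes of fatty acid synthesis, the desaturase Fads2 fell (274, 289 and 265 CPM with corticosterone, against 336, 334 and 333 CPM in controls, -0.28, edgeR, Benjamini-Hochberg adjusted p = 0.0291), while Elovl6 (-0.25) and Fasn (-0.19) did not pass, and the median was -0.09. Among 8 tested liver X receptor targets and exporters, Arl4c, a small GTPase, fell (159, 157 and 168 CPM with corticosterone, against 206, 198 and 199.7 CPM in controls, -0.32, edgeR, Benjamini-Hochberg adjusted p = 0.0159), while Abca7 (0.27) and Pltp, a phospholipid transfer protein (-0.33), did not pass, and the median was -0.02. For each of the 3 genes that fell, the groups did not overlap. Without corticosterone replicate 2 the counts of genes that fell in these lists were 7, 5 and 2, and 1 gene of the last list rose. In that fit 10% of all tested genes fell and 10.5% rose.

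In the other lists no gene passed in edgeR with all libraries, and their medians and the values after gene names are again log2 fold changes. The counts at an unadjusted p under 0.05 are to be read against 8.80% of all tested genes lower and 8.23% higher, and those of DESeq2 against 3.84% lower and 3.64% higher. Of 17 tested genes of SREBP processing and sterol-regulated degradation, with a median of 0.05, 3 were lower and 2 higher at an unadjusted p under 0.05, while DESeq2 called 1 lower and 1 higher and limma 0. The lowest p belonged to Erlin1, which helps to hold SREBPs in the endoplasmic reticulum (0.32; edgeR, Benjamini-Hochberg adjusted p = 0.0518), Rnf145 (-0.20) and Trim21 (-0.25). Of 16 genes of the isoprenoid branches, with a median of 0.07, 0 were lower and 2 higher at an unadjusted p under 0.05, while DESeq2 called 0 lower and 0 higher and limma 0. The lowest p belonged to Rabggtb, a subunit of Rab geranylgeranyl transferase (0.14), Nus1, of dolichol synthesis (0.20), and Pdss1, of coenzyme Q synthesis (0.16). Of 7 tested genes that make or inactivate oxysterols and steroids, with a median of -0.01, 0 were lower and 0 higher at an unadjusted p under 0.05, while DESeq2 called 0 lower and 0 higher and limma 0. Hsd3b7 was at 0.11, Cyp7b1 at -0.47 and Cyp46a1 at 0.77. Of 15 genes of lysosomal and non-vesicular transport and of other lipoprotein receptors, with a median of -0.03, 1 were lower and 4 higher at an unadjusted p under 0.05, while DESeq2 called 0 lower and 2 higher and limma 0. In that list Soat2, a cholesterol esterifying enzyme like Soat1, had 4.07, 5.17 and 3.35 CPM with corticosterone, against 1.75, 2.59 and 2.73 CPM in controls (0.83; edgeR, Benjamini-Hochberg adjusted p = 0.105). The lipoprotein receptor Vldlr had 11.2, 11.6 and 14.2 CPM with corticosterone, against 9.49, 9.44 and 8.43 CPM in controls (0.43; edgeR, Benjamini-Hochberg adjusted p = 0.108). The endocytic receptor Lrp2 was barely detected, at 0.509, 0.644 and 0.444 CPM with corticosterone, against 0, 0.153 and 0.153 CPM in controls (edgeR, Benjamini-Hochberg adjusted p = 0.167). In these 3 genes the treated libraries lay above all controls, at low levels. Without corticosterone replicate 2, edgeR called 1 lower and 3 higher in the SREBP processing list, 0 lower and 2 higher in the isoprenoid list, 0 lower and 0 higher in the oxysterol list and 2 lower and 2 higher in the lysosomal list. These counts are to be read against 10% of all tested genes lower and 10.5% higher in that fit.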

How the data were processed

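The authors deposited 1 table with counts and FPKM per gene and library. Per the file headers, its count columns hold raw counts, and they are whole numbers. Its FPKM columns are the authors' own, deposited beside the counts and scaled to length and depth. Aligner, counter and strandedness: not given in the sources used here. Per the submitters' processing notes the build was GRCh38, but all 28154 identifiers are mouse ones, 28086 of which are in GENCODE M21 (GRCm38). Coordinates are those of the table. No value column was left unmapped.

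Groups were taken from the treatment label. Library sizes were scaled by TMM, genes were filtered (filterByExpr, minimum count 10, minimum total 15), and 17283 genes, all 33 members among them, were tested with edgeR 4.0.16 in R 4.3.3 (quasi-likelihood, group only, Benjamini-Hochberg over all tested genes, threshold 0.05, 95% intervals). Ratios were tested by exact permutation. Alternatives were DESeq2 1.42.0, limma 3.58.1 on log2(FPKM + 1) and log2(FPKM + 0.1) with at least 1 FPKM in 3 libraries or no filter, median ratio scaling, no filter, a minimum count of 50, the replicate block, each library left out and, added later, length and GC offsets (known for 99.9% of tested genes). Copies were found with BLAST+ 2.17.0 (at least 90% identity over 500 bases). The code was tested on simulated data. One marker gene of the lists is not reported here. The rule for named genes was every member, and up to 3 genes of each surrounding list by lowest p. Members and lists were chosen with earlier results of these data known.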

Additional observations from a re-analysis of the deposited data

How the results depend on the processing

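Over all tested genes, edgeR called 234 higher and 253 lower, and over the 33 members 0 higher and 10 lower. The counts became 112, 99 and 4 (all genes higher, all genes lower, members lower) with no low count filter, which adds genes to the adjustment, 629, 664 and 17 with DESeq2, and 135, 125 and 3 with limma on log2(FPKM + 1) without a filter. They were 530, 520 and 15 with length and GC offsets. With each library left out in turn they ranged over 60 to 1884, 28 to 1786 and 0 to 20, with members higher at 0 to 2, the highest counts being those without corticosterone replicate 2. Leaving out a library also leaves fewer samples, and for the other changes the cause was not tested. With the replicate block the counts were 130, 107 and 2. Same-numbered libraries did not deviate together (Pearson r across genes of 0.011, 0.038 and -0.088 for numbers 1, 2 and 3). With 3 libraries a group this cannot show whether same-numbered libraries were prepared together, and the labels do not say. Median ratio scaling, a minimum count of 50 and limma with a filter at either pseudocount gave 8, 10, 9 and 9 members lower. The log2 fold changes of the 10 members that fell kept their sign under every alternative run. The ratios were computed only with counts in place of FPKM and with each library left out, and kept their sign. Intervals reflect the spread of 3 libraries a group, and genes such as Nr1h3 and Lrp2 are limited by depth.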
